A study of Mus musculus with 6 samples.

Results

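The 37 genes described here encode fibroblast markers, matrix glycoproteins, elastic fibre proteins, matrix proteases and the inhibitors of those proteases. They were taken from a given list of symbols that holds no collagens and no proteoglycans. Each gene was read from 1 probe set, the one with the highest mean over all arrays among probe sets annotated to that gene alone. Such a probe set was found for 34 of the 37 genes, out of 18193 genes in all. Fbn1, Adamts2 and Efemp2 were not analysed here. Of the 34, 31 passed the limit on dim signals, as did 10916 of all genes. Cdh2, Mfap4 and Mmp11 lay under it and were not tested, and Mmp23 passed it through its KO values alone.

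RNA of whole mammary glands was hybridised to 6 one-colour Affymetrix arrays, 1 array per sample. The 3 wild-type glands and the 3 Elf5 KO glands differ by genotype as labelled, with 3 samples titled as biological replicates in each group. No treatment is given for either group. The sample labels place all 6 glands at pregnancy day 17, while the design text speaks of lactation day 1, so no stage is assumed. The sources used here do not give the strain, the age, or how and in which cells Elf5 was disrupted. Elf5 is an ETS-family transcription factor of the luminal epithelium, the layer that makes milk.

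As background, the fibroblasts of the gland lie around the ducts and alveoli and within the fat pad. They secrete fibronectin, periostin and other glycoproteins, and build elastic fibres from elastin on a scaffold of fibrillin microfibrils with the help of fibulins. Matrix metalloproteinases (MMPs) and ADAMTS proteases cut this matrix, and the tissue inhibitors of metalloproteinases (TIMPs) hold them in check. Matrix turnover of this kind accompanies the growth and the regression of the mammary epithelium. In RNA from a whole gland, more cells of a type and more RNA per cell cannot be told apart.

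Elf5 itself was lower in every KO array than in every wild-type array. Its brighter probe set had a mean signal of 9099 ± 2553 (SD, n = 3) across the wild-type glands, against 4368 ± 1244 (SD, n = 3) across the KO glands, 48.0% as much. Its adjusted p was 0.109 without a block and 0.0151 with the paired fit described in the next paragraph, where it fell. The dimmer Elf5 probe set had a mean of 7135 ± 2475 (SD, n = 3) in wild type. In the KO its mean was 2406 ± 1625 (SD, n = 3), 33.7% as much. Luminal and milk genes were bright in all glands: the 10 markers summed to signals of 59483 to 132882 in wild type and 49553 to 67713 in the KO. RNA quality was uneven. The Gapdh control probe sets at the 3' and 5' ends, whose ratio is low for intact RNA, gave ratios of 0.833 to 1.09 for the wild-type arrays. The KO arrays gave 0.802, 3.89 and 13.6 for numbers 1, 2 and 3. The same ratios of Actb were 1.2 to 2.04 for the wild-type arrays and 1.58, 1.87 and 21 for the KO arrays, so KO array 2 stood apart by Gapdh only and KO array 3 by both. The difference of the log2 Gapdh ratio between the groups was 1.92 (two-sided exact permutation p = 0.4; 3 against 3 arrays allow no p under 0.1). Differences over the 3 wild-type arrays and KO array 1, called the low-ratio arrays here, are therefore given beside results. They were chosen by the Gapdh ratio and rest on 1 KO gland.

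Differences are KO minus wild type on the scale log2(signal + 16), with limma's standard error (SE) and a Benjamini-Hochberg adjusted p over all 10916 genes tested. The threshold was 0.05. The same model with the replicate number as a block is called the paired fit. Without the block 135 genes passed, 1.13% of the genes tested higher and 0.11% lower in the KO. The paired fit called 7.7% higher and 4.53% lower.

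Fibroblast and matrix genes were mostly higher in the Elf5 KO gland. Of the 31 members tested, 23 had a higher mean and 8 a lower one, with a median difference of 0.97 (0.90 with the 3 members too dim to be tested), against 53.9% higher and a median of 0.06 over all genes tested. Fap, Dpt, Pdgfra, Fn1 and Efemp1 rose, none fell and 26 did not pass. An unadjusted limma p under 0.05 was found for 20 of the 31, and for 2384 of all 10916 genes tested. In the paired fit 13 rose and 1, Tnc, fell. In 18 members all 3 KO values lay above all 3 wild-type values, and in 3 all lay below, where 16.7% and 10.6% of all genes did so. The median was 0.95 in the low-ratio arrays, which rest on 1 KO gland. The median was 1.05 without KO array 3. No member passed in limma without wild-type array 1, 2 or 3 or without KO array 2 or 3. Those fits called 0 to 9 of all genes. In them 16 to 20 members and 1553 to 1910 of all genes tested had an unadjusted limma p under 0.05. Without KO array 1, 11 members and 1206 genes (11%) passed. With 1 array left out the differences ranged from 1.76 to 2.16 for Fap, 1.55 to 2.10 for Dpt, 1.56 to 2.08 for Pdgfra, 1.58 to 2.0 for Fn1 and 1.94 to 2.88 for Efemp1.

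**Figure D1:**
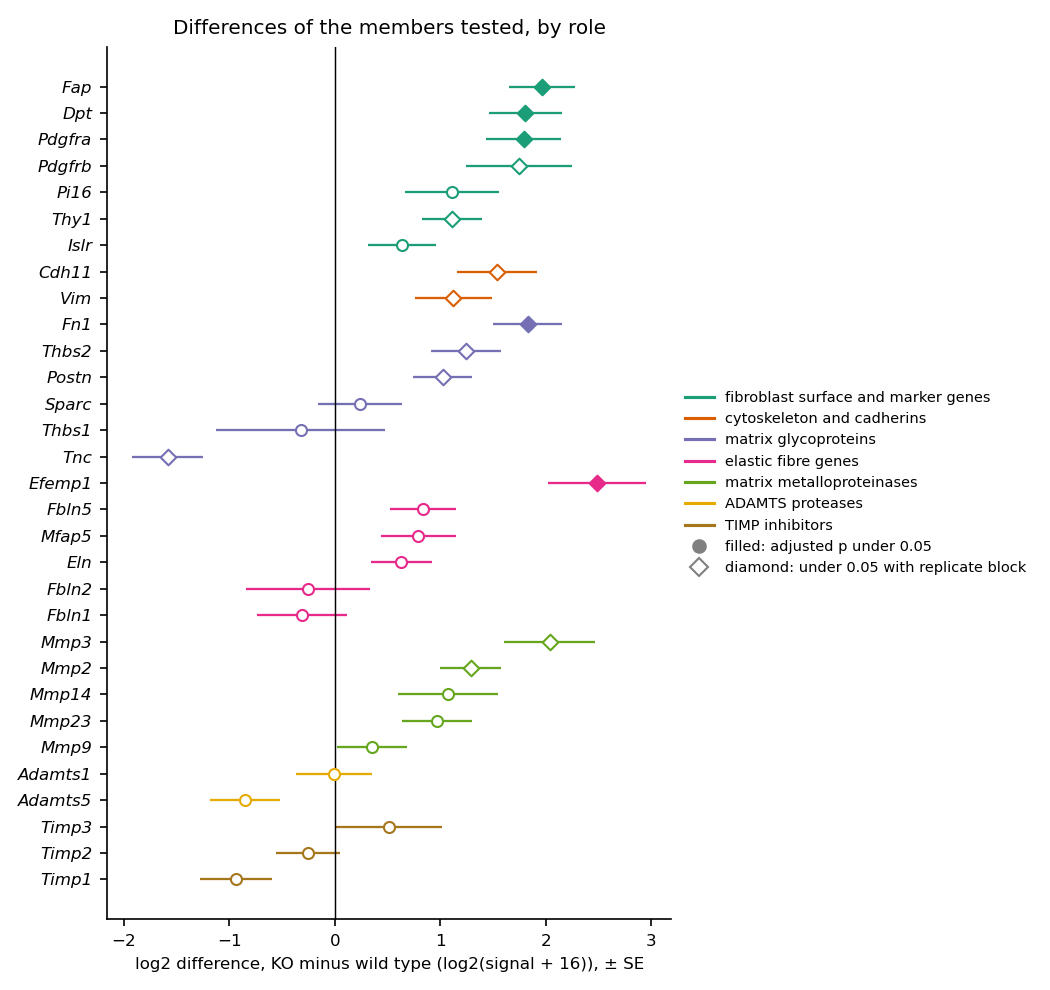
Log2 difference (KO minus wild type, x axis) of the 31 members tested, with bars of ± 1 SE (n = 3 arrays per group), grouped and coloured by role. Filled symbols had an adjusted p under 0.05 and diamonds passed with the replicate block; the 5 filled symbols all lie to the right of 0, and Tnc lies farthest to the left at -1.58.

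The stretches just upstream of the start sites were searched for motifs because Elf5 is an ETS factor and AP-1 sites are known from MMP promoters. RefSeq promoter windows (GRCm38.p6) were matched by symbol for 24 of the 37 members, with 31 windows between them. The 250 bases before the start are shown for the called genes that have a window, Dpt, Pdgfra and Efemp1, and for the protease gene Mmp3 and for Tnc, which differed most in the downward direction. Capitals mark letters that match the AP-1 motif TGANTCA, which reads the same on both strands and is known from MMP promoters, the ETS cores CCGGAAG and AGGAAG, or the TATA box TATAAA, on either strand. The ETS cores share the letters GGAAG, but no match of one is a match of the other. The windows lie at chr1:164796413-164796662 on the plus strand for Dpt, chr5:75152001-75152250 on the plus strand for Pdgfra, chr11:28852955-28853204 on the plus strand for Efemp1, chr9:7445572-7445821 on the plus strand for Mmp3 and chr4:64047016-64047265 on the minus strand for Tnc.
Dpt: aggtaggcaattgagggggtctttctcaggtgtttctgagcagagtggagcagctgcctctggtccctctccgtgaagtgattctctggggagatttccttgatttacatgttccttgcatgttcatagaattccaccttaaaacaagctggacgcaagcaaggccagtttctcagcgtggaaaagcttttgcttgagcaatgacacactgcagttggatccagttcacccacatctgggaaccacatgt
Pdgfra: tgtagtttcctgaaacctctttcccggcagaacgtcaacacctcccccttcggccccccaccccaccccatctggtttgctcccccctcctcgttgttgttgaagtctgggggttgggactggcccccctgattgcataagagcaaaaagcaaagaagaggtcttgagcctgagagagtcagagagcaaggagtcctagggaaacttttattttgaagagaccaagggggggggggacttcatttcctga
Efemp1: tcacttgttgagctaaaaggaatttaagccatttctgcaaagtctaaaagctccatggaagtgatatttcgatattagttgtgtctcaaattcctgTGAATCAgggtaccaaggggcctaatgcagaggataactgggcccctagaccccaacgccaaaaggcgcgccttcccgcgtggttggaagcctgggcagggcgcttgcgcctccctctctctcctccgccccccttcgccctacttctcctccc
Mmp3: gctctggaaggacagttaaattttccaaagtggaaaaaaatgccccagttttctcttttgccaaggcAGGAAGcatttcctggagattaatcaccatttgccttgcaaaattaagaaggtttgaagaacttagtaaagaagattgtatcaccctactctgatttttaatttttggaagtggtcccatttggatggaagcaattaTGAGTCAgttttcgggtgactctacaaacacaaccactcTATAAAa
Tnc: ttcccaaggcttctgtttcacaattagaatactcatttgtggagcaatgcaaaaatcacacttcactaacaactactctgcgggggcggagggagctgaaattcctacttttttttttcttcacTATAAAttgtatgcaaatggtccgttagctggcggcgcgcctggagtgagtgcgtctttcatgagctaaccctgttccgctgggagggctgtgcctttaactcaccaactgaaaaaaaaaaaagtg

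In the Mmp3 window an AP-1 match began 46 bases before the annotated start, an AGGAAG match 183 bases before it and TATAAA only 7 bases before it. The Efemp1 window held an AP-1 match 154 bases before the start, and the printed Tnc window a TATAAA 126 bases before it. A second Tnc window, at chr4:64046937-64047186 on the minus strand and not printed, held that TATAAA and an AGGAAG 43 bases before its own start. The Dpt and Pdgfra windows held none of the 4 motifs. Among member windows 6.45% held the AP-1 motif, against 6.75% of all 32851 windows. AGGAAG was in 35.5% of member windows and 29.5% of all, CCGGAAG in 0 of 31 and 6.91% of all, and TATAAA in 22.6% and 12.4%. These are matches of letters only, and several windows can belong to 1 gene.

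All 7 surface and marker genes of fibroblasts had a higher mean in the KO, with a median difference of 1.74 and of 1.27 in the low-ratio arrays. Fap encodes a serine protease on activated fibroblasts. Its signals were 156, 115 and 159.8 in the wild-type arrays numbered 1 to 3 and 596, 454 and 803 in the KO arrays of the same numbers, the order kept for all genes below. The groups were far apart, with KO array 3 the highest. Fap rose by 1.96 ± 0.32 (SE, adjusted p = 0.0356), 3.90-fold on this scale, and differed by 1.95 in the low-ratio arrays.

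Dpt encodes dermatopontin, a small matrix protein that binds collagen-associated decorin. Its signals were 1302, 892 and 971 in the wild-type glands against 3877, 2446 and 5261 in the KO glands. All KO arrays were above all wild-type arrays, with KO array 3 the highest. Dpt rose by 1.81 ± 0.34 (SE, adjusted p = 0.0466), 3.50-fold on this scale, and differed by 1.88 in the low-ratio arrays.

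Pdgfra and Pdgfrb encode the receptors through which platelet-derived growth factors act on mesenchymal cells. Pdgfra is a marker of fibroblasts and Pdgfrb is also found on pericytes. Pdgfra read 183, 291 and 314 in the wild-type glands against 615, 1245 and 1026 in the KO glands, where KO array 1 was the lowest. It rose by 1.79 ± 0.36 (SE, adjusted p = 0.0487), 3.46-fold on this scale, with 1.22 in the low-ratio arrays. A much dimmer Pdgfra probe set, with a mean signal of 70, differed by -0.24 with overlapping groups, and a still dimmer one by 0.76.

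Pdgfrb read 124, 182 and 151 in the wild-type glands against 283, 416 and 1324 in the KO glands. The groups did not overlap, but KO array 3 stood far above the other KO arrays. The difference was 1.74 ± 0.50 (SE, adjusted p = 0.0985), and Pdgfrb passed in the paired fit (adjusted p = 0.0301). It was 0.84 in the low-ratio arrays and a dimmer probe set differed by 0.84. The 8 pericyte markers had a median difference of 0.35, none passed in either fit, and they summed to 1629 to 1840 in wild type and 2055 to 2946 in the KO; their part in the Pdgfrb values was not tested.

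Thy1, a glycolipid-anchored surface protein of fibroblasts and T cells, read 300.3, 282 and 249 in the wild-type glands against 689, 501 and 672 in the KO glands. The 3 KO values lay well above the wild-type values. Thy1 differed by 1.11 ± 0.28 (SE, adjusted p = 0.0790) and rose in the paired fit (adjusted p = 0.0348). Pi16, a marker of adventitial fibroblasts, differed by 1.11 ± 0.44 (adjusted p = 0.191), with KO array 2 (226) below wild-type array 1 (245). Islr, a secreted leucine-rich repeat protein of stromal cells, differed by 0.64 ± 0.32 (adjusted p = 0.273), and its KO array 3 (359) barely exceeded wild-type array 2 (356). In the low-ratio arrays Islr differed by 1.13.

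Vim encodes vimentin, the intermediate filament of mesenchymal cells, and Cdh11 encodes a cadherin by which fibroblasts adhere to each other. Cdh11 read 70.1, 121 and 132 in the wild-type glands against 218, 509 and 331 in the KO glands, without overlap. It differed by 1.54 ± 0.37 (SE, adjusted p = 0.0699), and by 0.96 in the low-ratio arrays, and rose under the paired fit (adjusted p = 0.0163). Vim read 999, 2311 and 2253 in the wild-type glands against 3297, 4496 and 3685 in the KO glands. Wild-type array 1 was the lowest of the 6, and Vim differed by 1.12 ± 0.37 (SE, adjusted p = 0.129; 0.0293 in the paired fit, which it passed). Its other 2 probe sets differed by 1.40 and 1.67. Cdh2, which encodes N-cadherin, read 30, 34.5 and 21.1 in the wild-type glands against 37.8, 79.5 and 65.8 in the KO glands, too dim to be tested.

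**Figure D2:**
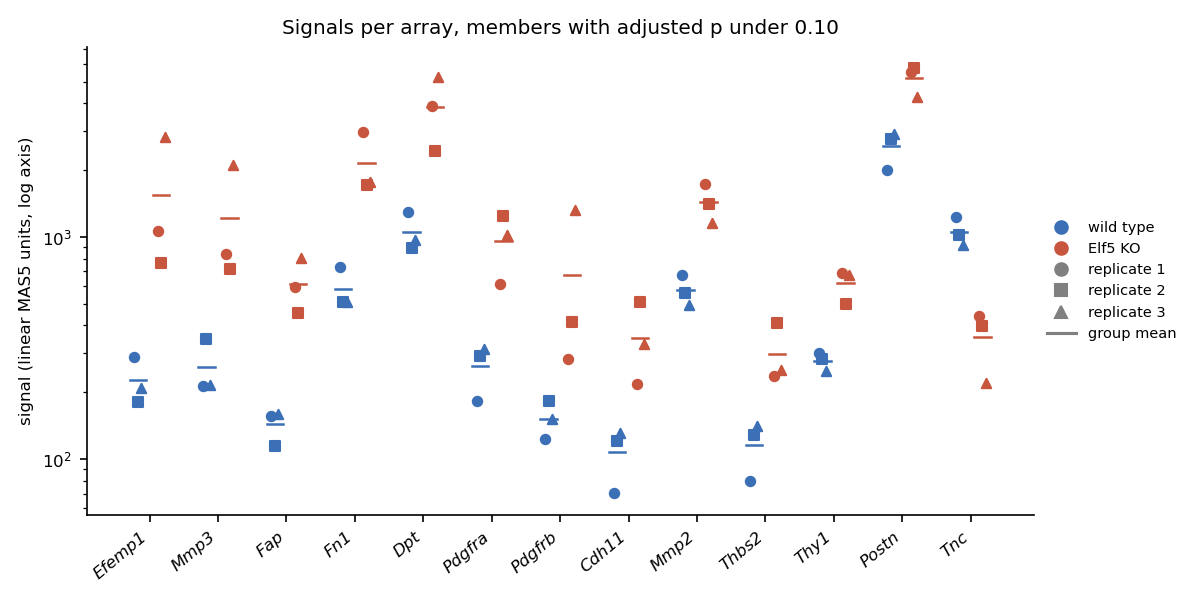
Signal per array (linear units on a log axis) of the 13 members with an adjusted p under 0.10, ordered by difference, with wild type in blue, KO in red, a symbol for each replicate number and a line at each group mean. The groups do not overlap for any of these genes, and Tnc is the only one with the KO below wild type. The genes were chosen by p-values from these same arrays, which favours groups that lie apart. Of all genes tested, 16.7% had all KO values above wild type and 10.6% all below.

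The matrix glycoproteins did not move together: of 6 members 4 were higher and 2 lower in mean, with a median difference of 0.63. Fn1 encodes fibronectin, which links cells to the matrix through integrins. It read 737, 508 and 509 in the wild-type glands against 2957, 1723 and 1776 in the KO glands. Every KO array was above every wild-type array, and KO array 1 was the highest. Fn1 rose by 1.83 ± 0.32 (SE, adjusted p = 0.0446), 3.55-fold on this scale, and differed by 2.33 in the low-ratio arrays. A much dimmer probe set, with a mean signal of 38.1, differed by -0.38.

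Postn encodes periostin, a fibroblast protein that binds collagen and tenascin-C. It read 2011, 2753 and 2908 in the wild-type glands against 5550, 5754 and 4263 in the KO glands. The groups were apart and KO array 3 was the lowest of the KO arrays. Postn differed by 1.02 ± 0.28 (SE, adjusted p = 0.0916) and rose in the paired fit (adjusted p = 0.0295).

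The thrombospondins Thbs2 and Thbs1 are secreted proteins that bind cell receptors and matrix. Thbs2 read 79.5, 128 and 141 in the wild-type glands against 236, 409 and 252 in the KO glands. These groups did not overlap, and Thbs2 differed by 1.24 ± 0.34 (SE, adjusted p = 0.0869) and rose in the paired fit (adjusted p = 0.0284). Its other 2 probe sets differed by 1.01 and 1.45. Thbs1 was scattered instead: 74.5, 238 and 631 in the wild-type glands against 148, 565 and 63.6 in the KO glands. Wild-type array 3 and KO array 2 were high, the groups overlapped widely, and the difference was -0.32 ± 0.80 (SE, adjusted p = 0.834).

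Tnc ran against most of the other glycoproteins. It encodes tenascin-C, a large adhesion-modulating glycoprotein of growing and wounded tissue. It read 1228, 1019 and 920.3 in the wild-type glands against 442, 398 and 221 in the KO glands. All 3 KO values were far below the lowest wild-type value. Tnc differed by -1.58 ± 0.33 (SE, adjusted p = 0.0572), by -1.22 in the low-ratio arrays, and fell in the paired fit (adjusted p = 0.0151). A dim second probe set differed by -0.73 with overlapping groups. In the myoepithelial and smooth muscle list, 6 of 10 members were lower, with a median of -0.30 and no call without the block, and 1 gene, the basal cell factor Trp63, rose in the paired fit (adjusted p = 0.0486); its summed signal was 14622 to 20465 in wild type and 11853 to 17147 in the KO, and its part in the Tnc values was not tested.

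Sparc encodes osteonectin, which binds collagen and calcium. It read 4019, 3853 and 4458 in the wild-type glands against 7456, 6052 and 2512 in the KO glands. KO arrays 1 and 2 lay above all wild-type arrays and KO array 3 below all of them. Sparc differed by 0.24 ± 0.39 (SE, adjusted p = 0.745), and by 0.86 in the low-ratio arrays. A second bright probe set read 2909.7, 3634 and 3892 in the wild-type glands against 4955, 6137 and 4442 in the KO glands, all KO values above wild type, a difference of 0.57.

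Of the elastic fibre genes, 4 of 6 tested were higher in mean and 2 lower. Efemp1 encodes fibulin-3, a secreted glycoprotein of the fibulin family. It read 289, 181 and 209.5 in the wild-type glands against 1066, 761 and 2821 in the KO glands. The KO arrays were all above wild type, and KO array 3 stood above the other KO arrays. Efemp1 rose by 2.49 ± 0.46 (SE, adjusted p = 0.0446), 5.60-fold on this scale and the largest difference of the 31 members in this fit, and differed by 2.18 in the low-ratio arrays.

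Eln, which encodes elastin itself, read 255, 295 and 233 in the wild-type glands against 518, 392 and 341 in the KO glands, and differed by 0.63 ± 0.29 (SE, adjusted p = 0.240). Fbln5, needed for elastic fibre assembly, read 262, 154 and 208 in the wild-type glands against 399, 445 and 299.7 in the KO glands, a difference of 0.84 ± 0.31 (SE, adjusted p = 0.169). In both genes the groups lay apart, but neither passed in either fit. Mfap5, a microfibril-associated glycoprotein, differed by 0.79 ± 0.36 (adjusted p = 0.231), with KO array 3 (548) below wild-type array 1 (562). In the low-ratio arrays these 3 genes differed by 0.95, 0.92 and 1.37.

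The fibulins Fbln1 and Fbln2, which sit in basement membranes and elastic fibres, overlapped between the groups. Fbln1 read 92.3, 71.4 and 46.8 in the wild-type glands against 94.4, 61.2 and 20.3 in the KO glands, and Fbln2 read 267, 172 and 123 and 278, 245 and 40.9. In both genes KO array 3 was the lowest of all arrays and KO array 1 the highest. Their differences were -0.31 ± 0.43 and -0.25 ± 0.59 (SE, adjusted p = 0.681 and 0.822), and turned to 0.39 and 0.59 in the low-ratio arrays. Mfap4, another microfibril protein, read at most 49.2 in any array.

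**Figure D3:**
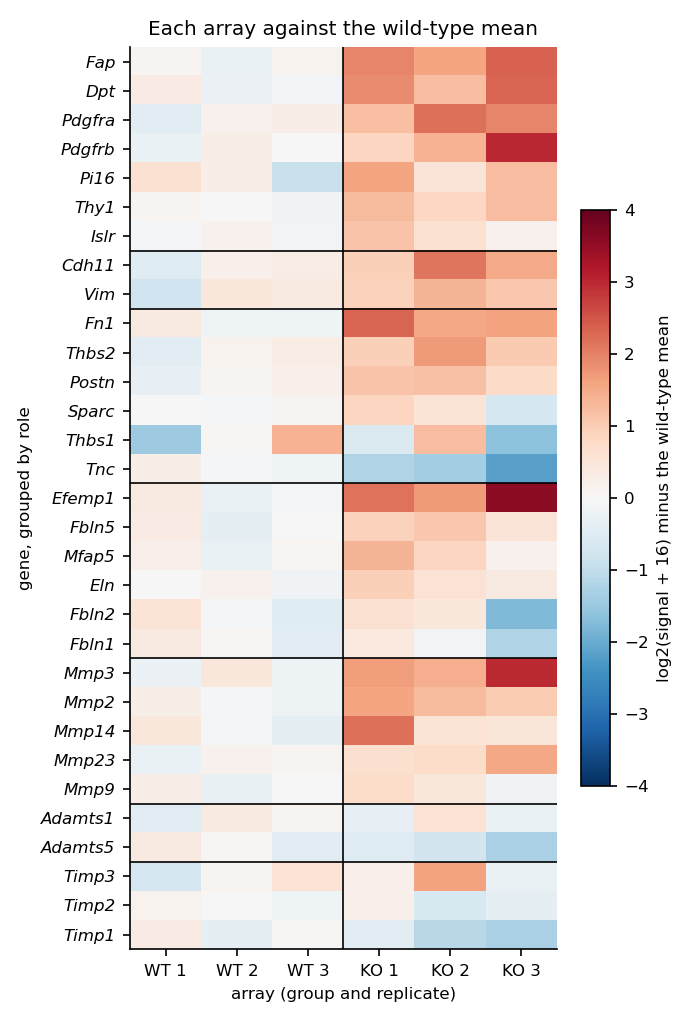
Log2(signal + 16) of each of the 31 members tested minus its wild-type mean, in each of the 6 arrays (columns), with genes grouped by role in the same order as in the plot of differences; red is higher and blue lower. Efemp1, Pdgfrb and Mmp3 are reddest in KO array 3, where Sparc, Fbln1 and Fbln2 are blue.

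The KO glands thus differed from each other as well as from wild type. KO arrays 1, 2 and 3 lay above the highest wild-type value in 25, 23 and 19 of the 31 members, and in 30.3%, 40.4% and 40.3% of all genes tested. They lay below the lowest wild-type value in 3, 4 and 8 members, and in 22.2%, 28.8% and 38.1% of all genes. The 8 in KO array 3 were Sparc, Tnc, Thbs1, Fbln1, Fbln2, Adamts5, Timp1 and Timp2, and in 4 of these, Sparc, Fbln1, Fbln2 and Timp2, KO array 1 was above all wild-type arrays. KO array 3 had the highest Gapdh ratio, and the part of RNA quality in this split was not tested.

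All 6 matrix metalloproteinases among the members, the dim Mmp11 included, were higher in mean, with a median difference of 1.03. None of the 5 tested passed without the block. Of MMPs outside the members, Mmp12 differed by -0.64 ± 0.46 (SE, adjusted p = 0.428) and Mmp13 by -0.44 ± 0.30 (SE, adjusted p = 0.413). The other MMPs looked at with a probe set were too dim to be tested and differed in either direction. Mmp3 encodes stromelysin-1, a stromal protease that cuts proteoglycans, fibronectin and basement membrane and activates other MMPs. It read 213, 349 and 217 in the wild-type glands against 839.5, 718 and 2116 in the KO glands. All KO values were above wild type, with KO array 3 the highest. Mmp3 differed by 2.03 ± 0.43 (SE, adjusted p = 0.0577), by 1.67 in the low-ratio arrays, and rose in the paired fit (adjusted p = 0.0195).

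Mmp2 encodes gelatinase A, which cuts denatured collagen and basement membrane collagen. It read 674, 559 and 496 in the wild-type glands against 1736, 1409.9 and 1162 in the KO glands. All KO arrays lay above all wild-type arrays. Mmp2 differed by 1.29 ± 0.29 (SE, adjusted p = 0.0613), by 1.58 in the low-ratio arrays, and rose in the paired fit (adjusted p = 0.0182). A second, equally bright probe set differed by 1.59, also without overlap.

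Mmp14 encodes the membrane-bound protease that activates pro-MMP2 at the cell surface. It read 405, 284 and 221 in the wild-type glands against 1407, 433 and 423 in the KO glands. KO array 1 stood far above the rest, while KO arrays 2 and 3 were just above wild-type array 1. Mmp14 differed by 1.08 ± 0.47 (SE, adjusted p = 0.221), and by 2.20 in the low-ratio arrays, which hold that gland. A dimmer probe set read 422 in KO array 1 and 28.1 and 16.7 in KO arrays 2 and 3, and differed by -0.04.

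Mmp23, an MMP made with a membrane anchor, read 21.5, 35.2 and 32.4 in the wild-type glands against 54.5, 58.6 and 117 in the KO glands and differed by 0.97 ± 0.33 (SE, adjusted p = 0.142), and by 0.64 in the low-ratio arrays. Its wild-type values all lay under the limit on dim signals. Its second probe set, under the limit on dim signals, differed by 2.07 without overlap. Mmp9, the gelatinase of leukocytes and invasive cells, read 61.4, 36.4 and 49.1 in the wild-type glands against 91.5, 72.7 and 41.8 in the KO glands. Its groups overlapped, and the difference was 0.35 ± 0.33 (SE, adjusted p = 0.540; 0.74 in the low-ratio arrays). Mmp11, or stromelysin-3, read 6.9, 14 and 19.2 in the wild-type glands against 44.3, 66.2 and 21.5 in the KO glands and was too dim to be tested.

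Of the ADAMTS proteases 2 were tested, and neither was higher in mean. Adamts5, which cuts aggrecan and versican, read 1351, 1102 and 794 in the wild-type glands against 732, 627 and 424 in the KO glands. All KO values were lower, and the difference was -0.85 ± 0.33 (SE, adjusted p = 0.182), without passing in either fit. It was -0.52 in the low-ratio arrays. Its 2 other probe sets above the limit differed by -0.57 and -1.02. Adamts1, which also cuts versican, differed by -0.00 ± 0.36 (SE, adjusted p = 0.996), with overlapping groups.

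Of the 3 TIMPs 1 was higher in mean and 2 lower. Timp1, a secreted inhibitor of most MMPs, read 326, 192 and 262 in the wild-type glands against 188, 109 and 94.3 in the KO glands. KO array 1 lay just under the lowest wild-type array and KO arrays 2 and 3 well under it. Timp1 differed by -0.94 ± 0.34 (SE, adjusted p = 0.162; 0.0566 with the block). The low-ratio arrays gave -0.41. Timp2, which inhibits MMPs and also helps MMP14 activate MMP2, differed by -0.25 ± 0.30 (SE, adjusted p = 0.640). Timp3, the TIMP that stays bound to the matrix, differed by 0.51 ± 0.50 (SE, adjusted p = 0.565). Both had overlapping groups, and in the low-ratio arrays they differed by 0.21 and 0.19.

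The probe sets of Timp2 and Timp3 disagreed. The one used for Timp2 read 2145, 1985 and 1720 in the wild-type glands against 2248, 1274 and 1499 in the KO glands, and a nearly as bright one differed by 0.35. The 3 others above the limit differed by -0.51, -1.16 and -1.0; the dimmest of these read 486 in KO array 1 but 17 in KO array 3. For Timp3 the probe set used read 249, 446 and 615 in the wild-type glands against 470.1, 1282 and 340.2 in the KO glands, and the others differed by -0.15, -0.94 and 0.35. No direction is given for either gene.

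Within each array the 3 TIMPs among the members were lower in the KO relative to the 5 MMPs tested among them. The mean log2 value of the 3 TIMP genes minus that of the 5 MMP genes, set to 0 at the wild-type mean, was -0.16, -0.13 and 0.28 for the wild-type glands against -1.37, -0.93 and -1.82 for the KO glands. The groups did not overlap. Relative to the wild-type mean, the MMP mean was 1.36, 0.89 and 1.18 in KO arrays 1, 2 and 3, and the TIMP mean was -0.00, -0.04 and -0.64. The gap of this score thus lay mostly on the MMP side. Among its 5 MMP genes, Mmp23 was above the limit on dim signals through its KO values alone. The gap is given without a test, since it is a score over chosen genes and 2 of the 3 TIMPs had probe sets that disagreed. The score leaves out Timp4, which read 344, 370 and 444 in the wild-type glands against 604, 449.5 and 1471 in the KO glands. Timp4 differed by 0.92 ± 0.42 (SE, adjusted p = 0.239), without overlap. The score also leaves out Mmp12 and Mmp13, which were lower in mean in the KO.

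**Figure D4:**
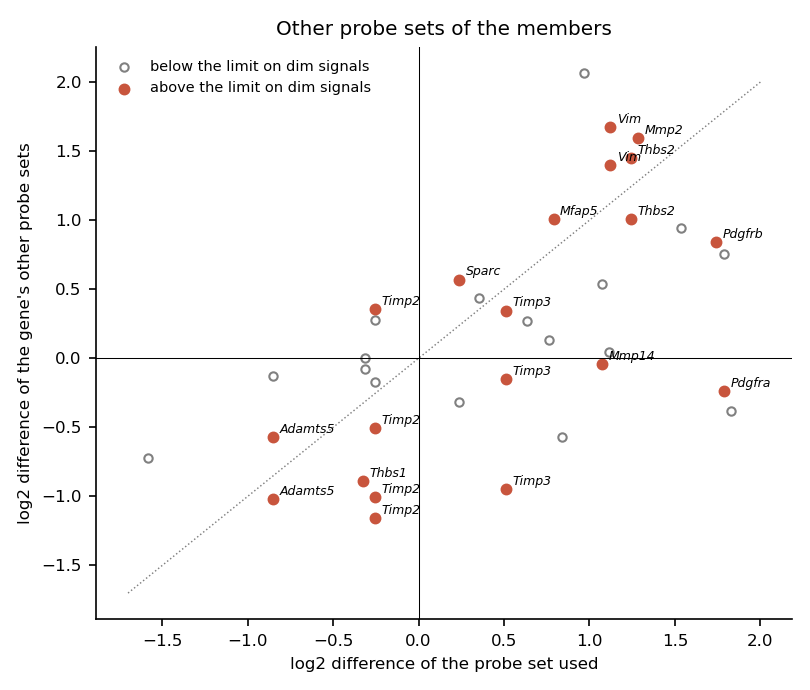
Log2 difference of the other probe sets of the members (y axis) against that of the probe set used (x axis); each point is a probe set, red where it was above the limit on dim signals by its mean log2 value and white below it, and the dotted line marks equal values. Of the 20 red points 15 have the same sign as the probe set used, and the 5 others belong to Pdgfra, Mmp14, Timp2 and Timp3.

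Most other probe sets above the limit on dim signals had the same sign as the probe set used. Of the 34 members 23 had more than 1 probe set, and 20 of their 37 other probe sets were above the limit. Of these 20, 15 had the sign of the probe set used and 5, of Pdgfra, Mmp14, Timp2 and Timp3, the opposite sign. Only signs were counted, and several of the 20 can belong to the same gene. When the log2 values of all probe sets of a gene were averaged, 23 of 31 members were still higher in mean, with a median difference of 0.64, and Fap alone passed.

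Other genes of the matrix were counted from lists that share no gene with the members. Elastic fibre and crosslinking genes were higher in 11 of 12 tested, with a median of 1.01. Fbln7, a fibulin, rose by 1.71 ± 0.28 (SE, adjusted p = 0.0356) and Emilin2, an elastic fibre glycoprotein, by 1.47 ± 0.29 (adjusted p = 0.0471), and 10 did not pass. Fbln7 read 37.6, 49.6 and 36.6 in the wild-type glands against 185, 148 and 179.5 in the KO glands, so it was above the limit on dim signals through its KO values alone. The same held for Fbn2, which was higher in mean but did not pass. Fbn2 read 45.5, 19.8 and 28.7 in the wild-type glands against 45.1, 87.9 and 83.6 in the KO glands. Lox, the lysyl oxidase that crosslinks elastin and collagen, differed by 1.12 ± 0.27 (adjusted p = 0.0699) and rose in the paired fit (0.0336), which called 6 of the 12 higher.

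Of other proteases and inhibitors, 9 of 13 tested were higher, with a median of 0.70. Adamts12 rose by 1.56 ± 0.30 (SE, adjusted p = 0.0466) and was the only one of the 13 to pass; the membrane protease Adam12 differed by 1.29 ± 0.28 (adjusted p = 0.0594) and the MMP inhibitor Reck by 1.38 ± 0.35 (adjusted p = 0.0796). In the paired fit 5 rose, with Adam12 (0.0204), Reck (0.0178) and another ADAMTS protease, Adamts15 (a difference of 1.13 ± 0.30, adjusted p = 0.0869 without the block and 0.0301 with it; named after its values were seen), among them. Of other mesenchymal genes 17 of 22 were higher, with a median of 0.90, and 3 rose: the homeobox factor Prrx1 by 2.04 ± 0.37, the TGF-beta-induced matrix protein Tgfbi by 1.97 ± 0.36 and the EF-hand protein S100a4 by 1.98 ± 0.37 (SE, adjusted p = 0.0446 for each). The paired fit called 12 of the 22 higher. Of these, Twist1 read 35.3, 47.9 and 22.7 in the wild-type glands against 94.2, 120 and 180 in the KO glands. Twist2 read 33.2, 21.6 and 44.6 in the wild-type glands against 77.3, 63.2 and 96.9 in the KO glands. Both genes were above the limit on dim signals through their KO values alone. No gene of these 3 lists fell in either fit.

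Receptors for matrix proteins were divided. Of 16 matrix receptors tested, 8 were higher and 8 lower in mean, with a median of -0.04, and none passed without the block. Cd44, the hyaluronan receptor, differed by 1.98 ± 0.43 (SE, adjusted p = 0.0605) and the collagen receptor Ddr2 by 1.39 ± 0.32 (adjusted p = 0.0619); both rose in the paired fit (0.0121 and 0.0291). The heparan sulfate proteoglycan Sdc1 differed by 0.96 ± 0.43 (adjusted p = 0.228). The integrin subunit gene Itgb3, named after its values were seen, was too dim to be tested and read 5.5, 8.6 and 2.8 in the wild-type glands against 66.6, 89.6 and 248 in the KO glands, without overlap. Itgb6, also too dim, went the other way, with 35.7, 40.8 and 34.6 against 30.7, 15.5 and 4.4, without overlap. In 3 of the 16 all KO values lay above all wild-type values, and in 1, Cd36, all lay below (16.7% and 10.6% of all genes). Cd36 differed by -0.59 ± 0.28 (SE, adjusted p = 0.249). The lowest difference was that of Itgb1, -1.32 ± 0.77 (SE, adjusted p = 0.328), with overlapping groups.

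**Figure D5:**
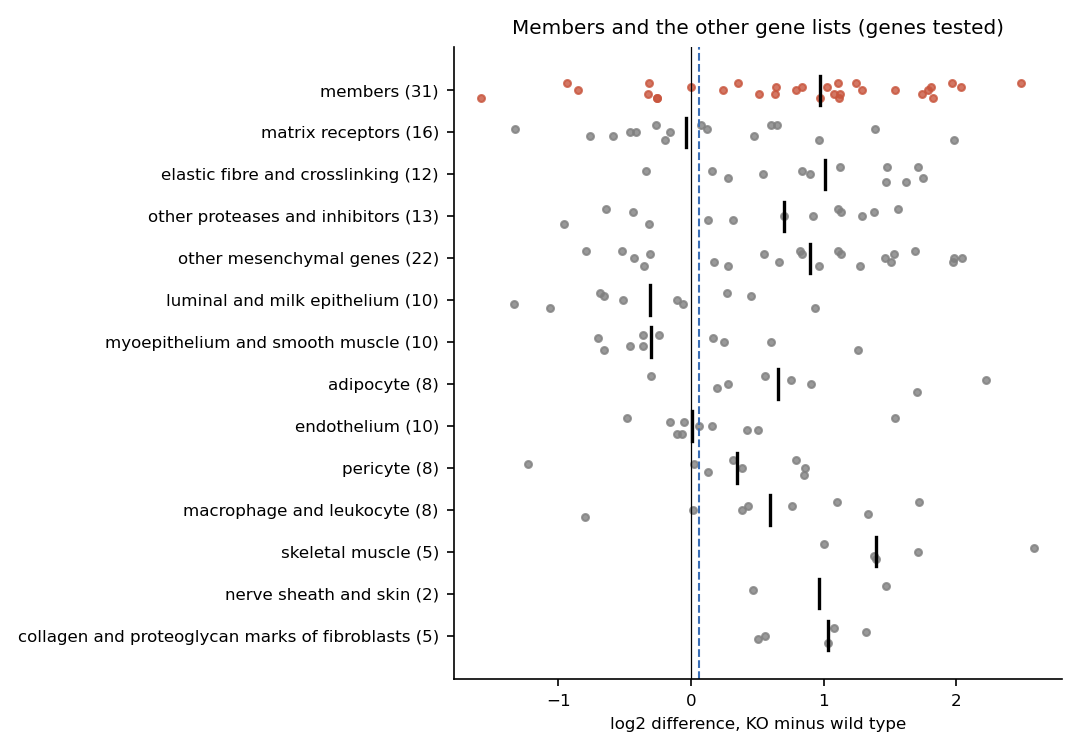
Log2 difference (KO minus wild type) of each gene tested in the members and in the other lists, with the number of genes tested in brackets, a black bar at each list's median and a dashed line at the median of all genes tested (0.06). The members have their median at 0.97 and the matrix receptors at -0.04.

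Markers of other cells also differed in level between the groups, and their part in the member differences was not tested. Of these lists only Vwf, an endothelial gene, passed without the block. Brackets give a gene's difference and its adjusted limma p without and with the block. The 5 collagen and proteoglycan marks of fibroblasts were all higher, with a median of 1.03, summing to 10442 to 17197 in wild type and 14297 to 30577 in the KO, which overlapped; the paired fit called 2 higher, Col1a2 among them (1.32 ± 0.41; 0.115 and 0.0158). Adipocyte markers were higher in 7 of 8, with a median of 0.66 and a low-ratio median of 1.21, and sums of 19549 to 23416 in wild type and 27366 to 37807 in the KO; the paired fit called 2 higher, the hormone genes Retn (1.70 ± 0.48; 0.0939 and 0.0179) and Lep (2.22 ± 0.72; 0.126 and 0.0130). Macrophage and leukocyte markers were higher in 7 of 8, with a median of 0.59 and a low-ratio median of 1.44, and sums of 6847 to 9822 against 9152 to 12985; the paired fit called 3 higher, the leukocyte phosphatase Ptprc (1.72 ± 0.37; 0.0581 and 0.0171), the receptor Csf1r (1.33 ± 0.40; 0.109 and 0.0184) and the lysozyme Lyz2 (adjusted p = 0.109 and 0.0207). Skeletal muscle markers were higher in 5 of 5, with a median of 1.39, above that of the members, and sums of 185 to 1811 in wild type and 769 to 4520 in the KO, which overlapped; the paired fit called 4 higher, the myosin Myh4 (2.59 ± 0.96; 0.168 and 0.0121) among them. Endothelial markers had a median of 0.01 and sums of 1687 to 1941 against 1729 to 2395; Vwf, which encodes the von Willebrand factor of clotting, rose by 1.54 ± 0.31 (SE, adjusted p = 0.0498). Luminal and milk markers were lower in 7 of 10, the disrupted Elf5 among them, with a median of -0.31. The paired fit called 1 higher, Cdh1 (0.93 ± 0.53, adjusted p = 0.326 and 0.0422). It called 3 lower, Elf5 itself and the milk protein genes Lalba (-1.33 ± 0.65, adjusted p = 0.263 and 0.0136) and Csn1s1 (-0.66 ± 0.37, adjusted p = 0.324 and 0.0484). Both tested nerve sheath and skin markers were higher, and these summed to 111 to 145 in wild type and 177 to 368 in the KO; the paired fit called S100b higher (1.47 ± 0.41; 0.0940 and 0.0257), which was above the limit on dim signals through its KO values alone. The muscle marker Actn3 and the pericyte marker Higd1b also had a wild-type mean log2 value under the limit on dim signals. No marker of any of these lists was at 0 in all arrays.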

How the data were processed

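Signal intensities of 45101 probe sets on 6 arrays (3 wild type, 3 Elf5 KO) were read from the deposited value table. These deposited intensities came from MAS5 and affy, as the submitters' processing notes name them, without versions. They are linear, and each array's mean was 150 once the outer 2% at both ends were trimmed. Neither array images nor detection calls were used here. The number of arrays limits the precision. The sources used here name no genome build for the arrays; promoter windows carry RefSeq's GRCm38.p6.

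Probe sets were named through the platform annotation: 34945 had 1 gene, 932 several and 9211 were not listed. Of a gene's probe sets, the one with the highest mean log2 value was used. Signals were tested as log2(signal + 16), so that fold changes of dim genes are understated. A filter removed genes whose mean log2 value lay under its 40th percentile, equal to a signal of about 43.8. The genotypes were then compared by limma 3.58.1 (R 4.3.3; lmFit, eBayes with an intensity trend), and p-values were adjusted over all 10916 genes. The code of the fit was checked on simulated data with known changes. The simulated noise was independent between arrays, with no link between arrays of the same number and no gradient of RNA quality. Biological replicates are named in the sample titles, with no more said of their source.

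Arrays with the same replicate number deviated together from their group means (correlations across genes of 0.46, 0.34 and 0.29; at most 0.15 between different numbers). Each same-number correlation was over 0.1, so the fit with the number as a block is given where it changes a call. Values were centred within each group, so a positive correlation for the same number lowers those between different numbers. The gap between them is thus partly built in. The labels do not say that the numbers pair animals.

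All members may be named. By the plan, values per array were given for those with an adjusted p under 0.10, for the 3 largest falls and for the brightest and dimmest. Of each other list the plan named at most the 3 genes with the smallest p. Values per array of further members, and further genes of the lists, are given beyond this plan, after their values were seen. Members and lists were chosen with earlier results of these data known. Alternatives were another pseudocount, no filter, quantile normalization, the block, another choice of probe set, no trend, arrays left out, and the Gapdh ratio as a covariate.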

Additional observations from a re-analysis of the deposited data

How the results depend on the processing

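The count of members that passed, 5 of 31 (135 of all genes), moved with the processing, while the median member difference of 0.97 kept its sign in all 16 alternatives. Members and all genes that passed numbered 1 and 49 with a pseudocount of 1, 1 and 56 without the filter on dim genes, and 1 and 75 with the mean over all probe sets of a gene, where the median moved to 0.64. Quantile normalization left 4 members, Pdgfra being lost, and 81 genes. The replicate block, the paired fit, gave 14 and 1335. The low-ratio arrays gave 0 and 0 (1013 genes, 18 of them members, at an unadjusted limma p under 0.05), and the Gapdh ratio as a covariate 0 and 0 (1112 and 20). Leaving out 1 array gave 0 to 11 members, 0 to 1206 genes and medians of 0.80 to 1.05. Choosing the probe set by the highest linear mean, added after seeing the data, gave 4 and 118, again without Pdgfra. A pseudocount of 32 and a fit without a trend called the same 5 members.

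Signs turned in 7 members, none of which passed in any of these fits. Without 1 array, differences ranged from -0.072 to 0.71 for Sparc, from -1.11 to 0.37 for Thbs1, from -0.67 to 0.13 for Fbln1, from -0.68 to 0.51 for Fbln2, from -0.30 to 0.17 for Adamts1 and from -0.034 to 0.90 for Timp3. In the low-ratio arrays the sign was turned for Fbln1 (0.39), Fbln2 (0.59) and Timp2 (0.21). With the covariate it was turned for Thbs1 (0.18), Fbln1 (0.39), Fbln2 (0.77) and Timp2 (0.022), and over all probe sets for Fbln2 (0.013) and Timp3 (-0.059). Among the 5 called genes the highest adjusted p over the alternatives was 0.189 for Fap and 0.339 for Pdgfra. With the mean over all probe sets the difference shrank from 1.79 to 0.77 for Pdgfra and from 1.83 to 0.72 for Fn1, whose other probe sets are dimmer. The causes were not tested. The fits without an array and the low-ratio arrays have fewer samples, and a group with 1 array was assumed to vary like the other.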
